A study of Rattus norvegicus with 13 samples.

Results

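The data describe how IL-1β, glucosamine and the combination of both changed RNA for the contractile apparatus, for targets of serum response factor (SRF) and for caveolae in cultured rat articular chondrocytes. The set holds 46 genes, chosen by name with earlier results of these data known. A gene counted as measured where the array had a probe set, the group of short probes that reports on 1 transcript, annotated to that gene and to no other. This was so for 44 of the 46, out of 14217 genes on the array. The only probe set for cofilin (Cfl1) is annotated to a second gene as well, and for Cavin1 no probe set was listed in the annotation used here. The 44 genes had 90 probe sets, all of which passed the filter on low values. For the 19 genes with more than 1, the probe set with the highest mean log2 signal over all arrays stands for the gene.

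The cells were second-passage chondrocytes isolated from femoral head cartilage of male Wistar rats (age 2 months), drawn from 1 pool, and each of the 13 Affymetrix rat genome arrays held RNA from 1 flask. Untreated cultures gave 3 arrays (a to c), and cultures in 20 mM glucosamine for 20 hours gave 2 (a and b). Cultures given 10 ng/ml IL-1β, an inflammatory cytokine, for 14 hours gave 4 (a to d). Glucosamine plus IL-1β, with glucosamine added 6 hours before the 14 hours of IL-1β, gave the other 4 (a to d). Since all flasks came from 1 pool, p-values reflect flask-to-flask spread alone, and a lower signal from fewer cells of a type cannot be told apart from less RNA per cell.

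Contractile cells pull on their surroundings with bundles of actin, tropomyosin and myosin. Non-muscle myosin is switched on when a kinase phosphorylates its regulatory light chain. Many of these genes are transcribed by SRF, which binds a short DNA element called the CArG box. Its cofactors of the MRTF family are held in the cytoplasm by unpolymerized actin and move to the nucleus when actin polymerizes. Chondrocytes grown as a monolayer spread and form stress fibers, and they are known to make smooth muscle actin and related proteins there. Caveolae are flask-shaped pits of the plasma membrane, formed by caveolins and coated by cavins, and they buffer membrane tension.

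Values are linear signals without a unit. For tests, values under a floor of 5.71 (the 25th percentile over all arrays) were set to it, and log2 was taken. A difference passed the test where the Benjamini-Hochberg adjusted p of limma, fitted to all 4 groups and over all 29263 probe sets tested, was under 0.05. Folds are ratios of geometric means of floored signals, and "at least" marks a fold whose lower group was under the floor on all arrays. Where only some arrays of a group were under it, the fold was taken with those arrays set to the floor and is no bound. Differences on the log2 scale are given ± the standard error of the fit.

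Cartilage genes were expressed in all groups. The summed signal of 6 measured chondrocyte markers was 9387 to 10630.0 in untreated, 7227 to 7569.7 in glucosamine, 5099.5 to 6187 in IL-1β and 5639 to 6790.3 in glucosamine plus IL-1β cultures. Markers of smooth muscle and pericytes, 8 of 8 measured, summed to 666 to 713, 701 to 910.5, 242 to 497 and 584 to 714 in the same order. Of these 8, 6, 6, 4 and 5 were above the floor on all arrays of their group, and 1 was at or under it on all arrays of each group. IL-1β lowered 4 of the 8 (Pdgfrb, Kcnj8, Abcc9 and Myocd) and raised none, against 15.3% and 15.5% of all genes. It lowered all 6 chondrocyte markers. Glucosamine lowered 2 of the 8 (Mcam and Kcnj8) and raised 1 (Cspg4), against 9.37% and 10.4%, and lowered 2 chondrocyte markers (Col9a1 and Hapln1). Fibroblast markers, 4 of 4 measured, lay between 8444 and 10513 in all groups, while those of endothelium and leukocytes were low. Endothelial markers (4 of 5 measured) summed to 46.7 to 64.2 in untreated, 55.2 to 55.5 in glucosamine, 91.8 to 197 in IL-1β and 54.8 to 148 in glucosamine plus IL-1β cultures, and 2 of them (Pecam1 and Tek) were higher with IL-1β. Leukocyte markers (4 of 4) summed to 8.96 to 13.6, 38.8 to 48.5, 176 to 237 and 50.3 to 76.6 in the same order, and 1 of them (Cd68) was higher with IL-1β. The part of these markers in the results for the contractile genes was not tested. The d arrays of IL-1β and of glucosamine plus IL-1β were noisier among weak signals: their 1st percentiles were -31.0 and -36.8, whereas the remaining 11 arrays had -6.47 to -4.81.

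CArG boxes near the start of these genes are shown because SRF binds this element. Only the exact sequence of CC, 6 bases that are A or T, and GG was counted as a box. Boxes with a mismatch or outside the windows were not counted. In RefSeq promoter windows of GRCr8, each 250 bases before to 50 after a start of transcription, a box was found in 548 of 33469 windows, 1.64%. For the genes of the set, 48 windows of 39 genes were at hand, and 6 windows (12.5%) of 5 genes held a box. The windows of Lmod1, Myh11, Cavin3, Myl9, Tnnt3, Actn4 and Tagln were not analysed here. The element reads as a CArG box on both strands, and a match is a description of the sequence, not a binding site. The capitals below mark the box, 5′ to 3′ on the strand of the gene. The Srf stretch (chr9:21923975-21924044, plus strand) has 2 boxes, which begin 81 and 61 bases before the start. Those of Acta1 (chr19:68784259-68784308, minus strand), Cnn2 (chr7:10370354-10370403, minus strand) and Fhl1 (chrX:139638374-139638423, plus strand) begin 94, 71 and 102 bases before it. Fhl2 has a box in the windows of 2 starts on the minus strand, 58 bases before the one (chr9:52923355-52923404, Fhl2 a) and 95 before the other (chr9:52954606-52954655, Fhl2 b).
Srf: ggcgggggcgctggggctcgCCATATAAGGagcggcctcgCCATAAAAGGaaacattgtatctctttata
Acta1: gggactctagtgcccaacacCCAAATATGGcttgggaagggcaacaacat
Cnn2: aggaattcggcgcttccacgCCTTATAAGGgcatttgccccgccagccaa
Fhl1: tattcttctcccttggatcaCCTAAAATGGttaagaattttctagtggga
Fhl2 a: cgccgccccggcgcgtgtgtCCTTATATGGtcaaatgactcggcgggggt
Fhl2 b: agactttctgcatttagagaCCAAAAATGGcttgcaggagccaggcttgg
The 5 genes did not respond alike. Acta1 fell with IL-1β and, in a fit without both d arrays, also with glucosamine. Fhl1 and Fhl2 fell with each agent. Srf fell with glucosamine on the probe set that stands for it while another probe set rose, and Cnn2 passed the test in none of the comparisons.

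IL-1β and glucosamine each lowered a large share of these genes. IL-1β alone lowered 21 of 44 and raised 4, while 15.3% of all 13748 genes tested were lower and 15.5% higher. Glucosamine alone lowered 22 and raised 1, against 9.37% and 10.4% of all genes. With both agents 29 were lower and 2 higher than in untreated cultures, against 14.7% and 16.6%. The median log2 difference of the 44 was -0.56, -0.64 and -0.95 in these comparisons, whereas that of all genes was 0.09, 0.00 and 0.13. These comparisons share the untreated arrays, so that their counts are not independent of each other. The set was also chosen with earlier results of these data known, so the shares are no independent evidence about it.

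When cells had glucosamine as well as IL-1β, 17 of the 44 genes were lower and 4 higher than with IL-1β alone, against 14.8% and 15.8% of all genes. The median was -0.06, against 0.03 for all genes. Added to cells already in glucosamine, IL-1β lowered 5 genes (Myl9, Mylk, Tpm2, Cald1 and Fhl1) and raised none at the threshold, against 1.13% and 1.45% of all genes. Here 8 genes were called by the methods' own test, 0 in a fit to these 2 groups alone, and 0 without either of the 2 glucosamine arrays. The difference between the IL-1β responses with and without glucosamine passed the test for 10 genes. For 2 of them, Cavin2 and Lmod1, it was set by the floor. Of the other 8, 7 had a difference above 0, that is, a smaller fall with glucosamine present or none, against 5.11% of all genes higher and 6.68% lower in this difference.

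**Figure D1:**
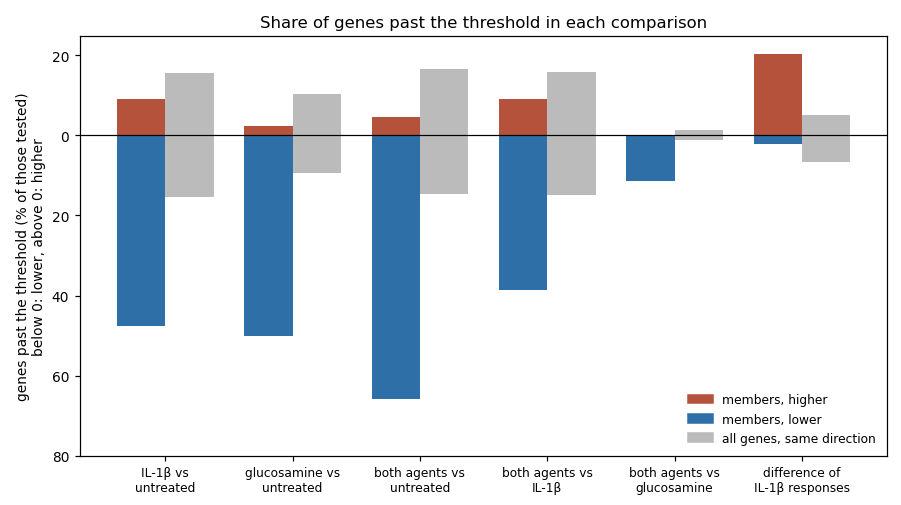
Share of genes past the threshold in 6 comparisons (%, members of the set in colour and all genes in grey), with genes that were higher above 0 and genes that were lower below it. The lower bars of the members are longer than the grey bars in the 5 comparisons of groups, from 11.4% for both agents against glucosamine to 65.9% for both agents against untreated.

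**Figure D2:**
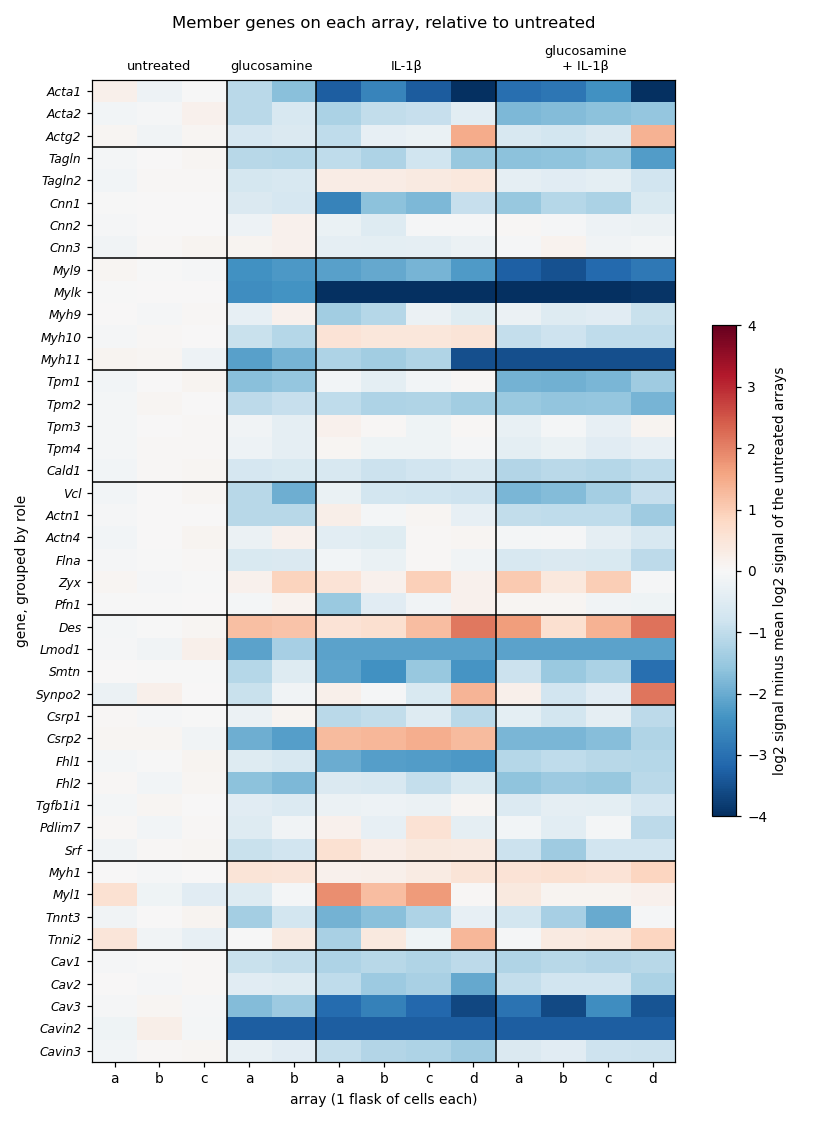
Each row is 1 of the 44 genes, each column 1 array, and the colour is the log2 signal (floored) minus the mean log2 signal of the 3 untreated arrays, with differences beyond 4 drawn in the end colour. Rows are grouped by role in the order of the text, from actin isoforms to caveolae.

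Of the actins, smooth muscle α-actin (Acta2), the actin of myofibroblasts and vascular smooth muscle, fell with either agent and was lowest with both. Its signal was 584, 605 and 702 on the untreated arrays, 297 and 400.2 with glucosamine, 262, 315, 330.4 and 465 with IL-1β and 180.0, 189, 199.96 and 214 with glucosamine plus IL-1β. No treated array reached an untreated one, and the arrays with both agents lay below all others. The fall was 1.87-fold with IL-1β (log2 -0.91 ± 0.17, adjusted p = 0.0018), 1.82-fold with glucosamine (adjusted p = 0.012) and 3.22-fold with both (adjusted p = 1.7e-05). Glucosamine plus IL-1β was also 1.72-fold below IL-1β alone. The glucosamine call was lost without 1 of several arrays (untreated c or glucosamine a, adjusted p 0.05 to 0.16).

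Skeletal muscle α-actin (Acta1) was on the untreated arrays at 114, 85.4 and 97.7 and on the glucosamine arrays at 46.2 and 30.6. It was at 10.1, 15.9, 9.72 and 5.69 with IL-1β and at 12.0, 13.4, 18.5 and 5.59 with both agents, where the d array of each group was under the floor. The groups with IL-1β lay clear of those without it. Acta1 fell 10.1-fold with IL-1β (log2 -3.34 ± 0.42, adjusted p = 0.0001) and 8.61-fold with both agents. Glucosamine alone gave a log2 difference of -1.39 ± 0.51, which did not pass the test (adjusted p = 0.1). This difference did pass in a fit without both d arrays (adjusted p = 0.0058) and with the floor at the 40th percentile (adjusted p = 0.00084). Acta1, Smtn and Cav3 are genes that the study itself listed for their fall with IL-1β on these arrays, so that their direction is no independent evidence. Enteric smooth muscle γ-actin (Actg2) passed the test in none of the 6 comparisons: without the d arrays, at 299 and 282, it ranged from 52.4 to 112. In a fit without both d arrays it was lower than untreated with each treatment. The log2 difference was -0.63 with glucosamine (adjusted p = 0.042), -0.54 with IL-1β (adjusted p = 0.038) and -0.64 with both (adjusted p = 0.017).

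The actin-bundling protein transgelin (Tagln, or SM22) followed the pattern of Acta2. It read 1371, 1457 and 1535 on the untreated arrays and 666 and 656 with glucosamine. IL-1β cultures read 715, 612, 829.5 and 504, and cultures with both agents 465, 479, 514 and 311. The untreated arrays lay above all others, while the groups with IL-1β overlapped at the d array of IL-1β. Tagln fell 2.22-fold with IL-1β (adjusted p = 0.00056), 2.20-fold with glucosamine (adjusted p = 0.0039) and 3.34-fold with both (adjusted p = 2.4e-05). It was 1.51-fold lower with both agents than with IL-1β, a call that was lost when 1 array was left out (IL-1β a or c, adjusted p 0.064 to 0.067).

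Its relative Tagln2, which is not restricted to muscle, went the other way with IL-1β. Tagln2 was 1087, 1209 and 1202 in untreated, 1439, 1435, 1500.3 and 1553 in IL-1β, 716 and 751 in glucosamine and 904, 857, 887 and 691 in glucosamine plus IL-1β cultures. IL-1β raised it 1.27-fold (adjusted p = 0.013; lost without untreated a, adjusted p 0.066), and glucosamine lowered it 1.59-fold (adjusted p = 0.0011). With both agents it was 1.78-fold below IL-1β alone, and these 2 groups did not overlap.

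Basic calponin (Cnn1), which binds actin in differentiated smooth muscle, had low signals throughout. Untreated arrays gave 35.9, 36.3 and 36.4, IL-1β 3.59, 11.6, 10.5 and 18.9, glucosamine 24.5 and 22.5 and both agents 12.5, 16.3, 15.2 and 23.8. All IL-1β arrays were under the untreated ones, the a array under the floor. With that array at the floor, the fall with IL-1β was 3.38-fold (log2 -1.76 ± 0.37, adjusted p = 0.0039). With both agents it was 2.20-fold, close to the threshold and lost when 1 of several arrays was left out (untreated a, b or c, glucosamine a or b, IL-1β b or c or glucosamine plus IL-1β a, b or c, adjusted p 0.058 to 0.12). Both agents against IL-1β gave a log2 difference of 0.62 ± 0.34 (adjusted p = 0.26, and adjusted p = 0.015 with the replicate letter as a block among the arrays of these groups). Of the calponins that non-muscle cells also make, Cnn2 passed the test in none of the 6 comparisons. Cnn3 fell 1.26-fold with IL-1β (lost without untreated c, adjusted p 0.053) and was 1.23-fold higher with both agents than with IL-1β alone.

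Myosin light chain kinase (Mylk), which phosphorylates the regulatory light chain, had the largest difference of the 44 genes with IL-1β on the floored scale. It was at 157, 159 and 159 on the untreated arrays. It was at 28.5 and 30.1 with glucosamine, at 8.29, 9.55, 8.90 and 4.38 with IL-1β and at 7.86, 3.62, 7.61 and 10.5 with both agents. Glucosamine thus left an intermediate signal, and the groups with IL-1β lay near the floor and overlapped. The fall was 19.9-fold with IL-1β (log2 -4.31 ± 0.26, adjusted p = 2.4e-07), 5.41-fold with glucosamine (adjusted p = 0.00027) and 20.4-fold with both (adjusted p = 3.2e-07). A second Mylk probe set, 1384818_at, was 12.7, 9.90 and 13.5 in untreated cultures and under the floor on all treated arrays. The floor thus set its log2 difference of -1.06 in each comparison with untreated.

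Myosin regulatory light chain (Myl9), the substrate of that kinase in smooth muscle and non-muscle cells, fell with each agent and further with both. Its signals were 370.4, 351 and 338 in untreated, 65.8 and 72.1 in glucosamine, 77.6, 84.8, 96.4 and 73.5 in IL-1β and 36.6, 31.8, 41.2 and 48.5 in glucosamine plus IL-1β cultures. The 4 groups did not overlap. Myl9 fell 4.27-fold with IL-1β (log2 -2.10 ± 0.14, adjusted p = 4.8e-07), 5.13-fold with glucosamine (adjusted p = 2.8e-06) and 9.04-fold with both (adjusted p = 2.7e-08). Both agents together were 2.11-fold under IL-1β alone (adjusted p = 7.7e-05).

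Smooth muscle myosin heavy chain (Myh11), a marker of mature smooth muscle, was low and also fell on its representative probe set. It read 70.2, 67.9 and 56.8 in untreated and 14.4 and 18.0 in glucosamine cultures. IL-1β gave 27.8, 24.7, 28 and -1.17, and all 4 arrays with both agents were under the floor (0.869, 3.45, 0.77 and -30.6). The fall was 3.56-fold with IL-1β (adjusted p = 0.016; lost without untreated a or b, adjusted p 0.056 to 0.058, and with the floor at the 10th percentile, adjusted p 0.13) and at least 11.3-fold with both agents (adjusted p = 0.00021). With glucosamine it was 4.02-fold (adjusted p = 0.037), a call lost when any of 8 arrays was left out (untreated a, b or c, glucosamine a or b or glucosamine plus IL-1β a, b or c, adjusted p 0.051 to 0.21). Both agents against IL-1β alone gave 3.18-fold lower, which was lost without 1 of 3 arrays (IL-1β a, b or c, adjusted p 0.052 to 0.054).

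The non-muscle heavy chains behaved differently from each other. Myh10, the heavy chain of myosin IIB, was 368, 391 and 384 in untreated and 561, 522, 517 and 544 in IL-1β cultures, but 206 and 172 with glucosamine and 195, 217, 188 and 190.1 with both agents. IL-1β raised it 1.41-fold (adjusted p = 0.0003), and glucosamine lowered it 2.02-fold (adjusted p = 1.1e-05). With both agents it was 2.72-fold under IL-1β alone (adjusted p = 4.2e-08), and the log2 difference from glucosamine alone was 0.07 ± 0.08 (adjusted p = 0.82). Myh9, the heavy chain of myosin IIA, fell 1.76-fold with IL-1β only, with an adjusted p of 0.035 that was lost without 1 of 5 arrays (untreated a, b or c or IL-1β a or b, adjusted p 0.077 to 0.11).

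**Figure D3:**
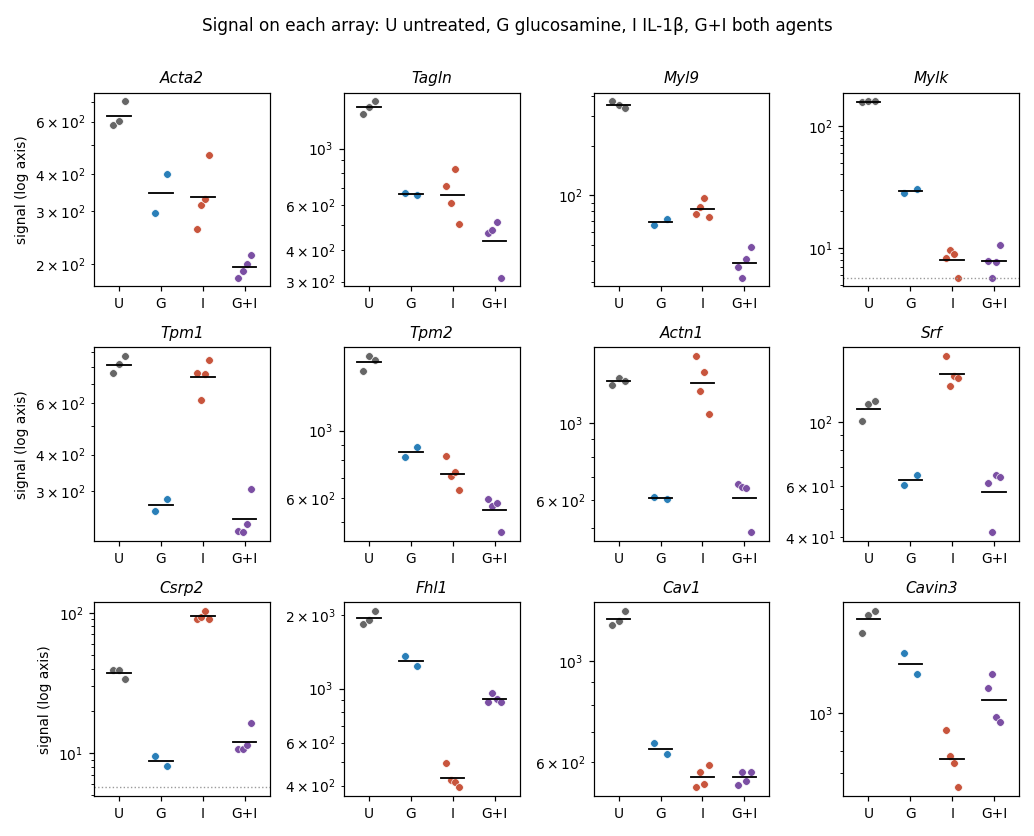
Signal on each array (points, log axis) for 12 genes, with bars at the geometric mean of each group (n = 3 untreated, 2 glucosamine, 4 IL-1β and 4 with both agents) and a dotted line at the floor of 5.71 where values come near it. Tpm1, Actn1, Srf and Csrp2 are low in both groups with glucosamine, whereas Fhl1 and Cavin3 are lowest with IL-1β alone.

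Tropomyosins lie along actin filaments and set which myosins can use them. Tropomyosin 1 (Tpm1) was 761, 817 and 869 in untreated and 759, 617, 758 and 847 in IL-1β cultures. With glucosamine it was 256 and 281, and with both agents 219.7, 216, 232 and 306. All 6 arrays with glucosamine lay well under all 7 without it. Glucosamine lowered it 3.04-fold (log2 -1.60 ± 0.15, adjusted p = 3.1e-05), and both agents 3.38-fold (adjusted p = 1.5e-06). IL-1β alone did not pass the test on this probe set (log2 -0.14 ± 0.13, adjusted p = 0.53). Another Tpm1 probe set, 1370288_a_at, did fall 1.84-fold with IL-1β, from 529, 557 and 575 to 215, 321, 410.5 and 291 (adjusted p = 0.009), and 3.56-fold with glucosamine. Tpm1 is known to give several isoforms, but which ones these probe sets report on was not analysed here.

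Tropomyosin 2 (Tpm2), by contrast, fell with each agent. It was 1577, 1759 and 1712 in untreated, 821 and 882 in glucosamine, 824, 707, 730.5 and 638 in IL-1β and 595, 566, 577 and 462 in glucosamine plus IL-1β cultures. The fall was 2.33-fold with IL-1β (adjusted p = 3.1e-06), 1.98-fold with glucosamine (adjusted p = 0.00018) and 3.07-fold with both (adjusted p = 3.9e-07). Its order, untreated over single agents over both, was that of caldesmon (Cald1), which restrains myosin on actin. Cald1 was 2114, 2357 and 2453 in untreated, 1446 and 1505 in glucosamine, 1475, 1266, 1353 and 1467 in IL-1β and 1027, 1102, 1044 and 1133 in glucosamine plus IL-1β cultures. It fell 1.66-fold with IL-1β (adjusted p = 1.5e-05), 1.56-fold with glucosamine (adjusted p = 0.0004) and 2.14-fold with both (adjusted p = 7e-07). A second Cald1 probe set, 1368824_at, fell further, 2.47-fold, 2.75-fold and 4.36-fold in the same comparisons. Tpm4 was 1.28-fold lower with both agents than in untreated cultures and 1.21-fold lower than with IL-1β (lost without glucosamine plus IL-1β c, adjusted p 0.051). Its second probe set, 1368838_at, fell with IL-1β (log2 -0.29, adjusted p = 0.021) and glucosamine (log2 -0.33, adjusted p = 0.037) alone. It did not pass for both agents against IL-1β (adjusted p = 0.39). The representative of Tpm3 passed the test in none of the 6 comparisons. Tpm3 1371239_s_at was lower with glucosamine (log2 -0.42, adjusted p = 0.035), and with both agents than in untreated and IL-1β cultures. So were 1370340_x_at, 1387918_at and 1398303_s_at, and no other Tpm3 probe set passed for glucosamine alone.

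Among the crosslinkers of actin and the proteins of focal adhesions, 3 of 6 measured genes fell with glucosamine, and on their representative probe sets none of the 6 passed the test for IL-1β alone, against 9.37% and 15.3% of all genes lower. α-Actinin 1 (Actn1), which crosslinks stress fibers, was 1281, 1342 and 1322 in untreated and 1552, 1237, 1395 and 1059 in IL-1β cultures. It was 613 and 606 with glucosamine and 668, 657, 651 and 486 with both agents, so that the 6 arrays with glucosamine lay apart from the other 7. The fall was 2.16-fold with glucosamine (log2 -1.11 ± 0.16, adjusted p = 0.00057), and both agents together were 2.13-fold under IL-1β alone (adjusted p = 5.1e-05). IL-1β alone gave a log2 difference of -0.02 ± 0.13 (adjusted p = 0.95). Filamin A (Flna), which holds actin in networks, fell 1.5-fold with glucosamine (adjusted p = 0.0089; lost without glucosamine a or b, adjusted p 0.062 to 0.07) and 1.64-fold with both agents (adjusted p = 0.00037).

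Vinculin (Vcl), which links integrin adhesions to actin, had 3 probe sets that differed. The representative was 804, 876 and 905 in untreated, 395 and 222 in glucosamine, 721, 519.7, 499.8 and 489.5 in IL-1β and 242, 258, 338 and 453 in glucosamine plus IL-1β cultures. It fell 2.90-fold with glucosamine (adjusted p = 0.0032; lost without glucosamine b, adjusted p 0.058) and 2.75-fold with both agents (adjusted p = 0.00075), and IL-1β alone did not pass (adjusted p = 0.075). It was 1.76-fold lower with both agents than with IL-1β, a call lost without 1 of 3 arrays (IL-1β a or glucosamine plus IL-1β a or b, adjusted p 0.055 to 0.06). The probe set 1372905_at spread less, with 791, 806 and 872 in untreated and 419, 350.4, 335 and 300.2 in IL-1β cultures, and it fell 2.36-fold with IL-1β (adjusted p = 2.9e-06). On the remaining one, 1398476_at, the fall with IL-1β was 10.0-fold, with the d array set to the floor. Actn4, Zyx and Pfn1, which code for a second α-actinin, zyxin of focal adhesions and the actin-binding profilin, passed the test in none of the 6 comparisons.

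The remaining smooth muscle proteins did not move together. Smoothelin (Smtn), found in contractile smooth muscle, was 496, 489.9 and 487 in untreated, 223 and 343 in glucosamine, 113, 92.5, 170.2 and 94.9 in IL-1β and 272, 176, 203 and 60.9 in glucosamine plus IL-1β cultures. It fell 4.31-fold with IL-1β (log2 -2.11 ± 0.42, adjusted p = 0.0028) and 3.15-fold with both agents (adjusted p = 0.012). The second Smtn probe set, 1396885_at, fell 9.17-fold with IL-1β, with the d array set to the floor. Leiomodin 1 (Lmod1), which starts actin filaments in smooth muscle, was low at 24.5, 22.9 and 29.2 in untreated cultures. It was under the floor on all 8 arrays with IL-1β (3.20, 2.30, 4.00 and -11.7 with IL-1β and 3.04, 3.18, 1.54 and -3.37 with both agents) and at 3.83 and 10.1 with glucosamine. Its fall was at least 4.44-fold with IL-1β (adjusted p = 5.2e-06) and 3.33-fold with glucosamine (adjusted p = 0.00028), the latter lost with the floor at the 10th percentile. Desmin (Des), the intermediate filament of muscle, was higher instead, at 12.9, 13.3 and 14.4 in untreated, 30.8 and 29.5 in glucosamine, 19.7, 21.3, 31.7 and 58.2 in IL-1β and 43.5, 21.0, 35.6 and 61.5 in glucosamine plus IL-1β cultures. It rose 2.78-fold with both agents (adjusted p = 0.021), and this was lost without 1 of 4 arrays (untreated a, b or c or glucosamine plus IL-1β a, adjusted p 0.054 to 0.069). Synaptopodin 2 (Synpo2) passed the test in none of the 6 comparisons.

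LIM domain proteins bind actin structures and shuttle between them and the nucleus, and several are SRF targets. Fhl1, with a CArG box shown above, was 1848, 1923 and 2082 on the untreated and 1363 and 1243 on the glucosamine arrays. IL-1β lowered it to 495, 420.0, 415 and 393, and with both agents it was at 886, 961, 906 and 879.9. The 4 groups did not overlap, and IL-1β alone was the lowest. The fall was 4.54-fold with IL-1β (log2 -2.18 ± 0.08, adjusted p = 4e-09), 1.5-fold with glucosamine (adjusted p = 0.0014) and 2.15-fold with both (adjusted p = 1.3e-06). Both agents together left Fhl1 2.11-fold higher than IL-1β alone (adjusted p = 8.9e-07). Fhl1 is among the genes the study listed for this fall. A second Fhl1 probe set, 1390049_at, gave the same order with a fall of 8.40-fold with IL-1β, from 1008, 1091 and 1072 to 103, 133, 158 and 115.

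Fhl2, a protein that can bind SRF, with boxes at 2 of its starts, was ordered differently. Its signal was 382, 337 and 385 in untreated, 244, 237, 192 and 243 in IL-1β, 119 and 106 in glucosamine and 119, 134, 129 and 173 in glucosamine plus IL-1β cultures. Glucosamine lowered it 3.27-fold (adjusted p = 1.8e-05) and IL-1β 1.61-fold (adjusted p = 0.0018), and both agents together were 1.66-fold under IL-1β alone. Csrp1, of the smooth muscle LIM proteins, fell 1.88-fold with IL-1β (adjusted p = 0.0027) and 1.55-fold with both agents (adjusted p = 0.024; lost without untreated a, b or c or glucosamine plus IL-1β b, adjusted p 0.058 to 0.08). Tgfb1i1 (Hic-5), of focal adhesions, fell 1.41-fold with glucosamine (lost without untreated b or glucosamine a or b, adjusted p 0.051 to 0.12) and 1.42-fold with both agents. Pdlim7 passed the test in none of the 6 comparisons, but with the replicate letter as a block among the arrays with IL-1β it was lower with both agents than with IL-1β (log2 -0.42, adjusted p = 0.024, and 0.29 without the block).

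Csrp2, the second smooth muscle LIM protein, went in opposite directions with the 2 agents. It was 39.3, 39.3 and 34 on the untreated arrays and rose to 90.0, 93.1, 103 and 90.8 with IL-1β. With glucosamine it was 9.60 and 8.14, and with both agents 10.6, 10.6, 11.5 and 16.4. No IL-1β array overlapped another group, and the arrays with both agents lay under the untreated ones. IL-1β raised Csrp2 2.51-fold (log2 1.33 ± 0.20, adjusted p = 0.00044), and glucosamine lowered it 4.24-fold (adjusted p = 0.00012). Glucosamine plus IL-1β was 7.77-fold under IL-1β alone (adjusted p = 5.1e-07), the largest difference between these groups among the 44 genes on the floored scale. That of Myh11, at the floor on all arrays with both agents, was log2 -1.67 there but -3.25 with the floor at the 10th percentile.

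Srf itself, whose 2 CArG boxes are shown above, fell with glucosamine on its representative probe set, 1388842_at. The signals were 100.5, 115 and 118 in untreated, 169, 134, 144 and 142 in IL-1β, 60.5 and 65.7 in glucosamine and 61.3, 41.5, 65.8 and 64.6 in glucosamine plus IL-1β cultures. All arrays with glucosamine lay below all without it. Glucosamine lowered it 1.76-fold (adjusted p = 0.011; lost without glucosamine a or b, adjusted p 0.057 to 0.095), and both agents were 2.56-fold under IL-1β alone (adjusted p = 3.2e-05). IL-1β alone gave a log2 difference of 0.40 ± 0.16, which did not pass (adjusted p = 0.091). A second Srf probe set, 1395378_at, went the opposite way at low signals. It was 8.55, 2.09 and 12.9 in untreated, 1.11, 4.07, 8.68 and 10.1 in IL-1β, 28.8 and 31.4 in glucosamine and 20.2, 31.5, 26.4 and 54.6 in glucosamine plus IL-1β cultures, a rise of 3.51-fold with glucosamine (adjusted p = 0.022). The last, 1374829_at, passed the test in none of the 6 comparisons, so that the direction for Srf rests on the probe set.

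All 5 measured caveola genes fell with IL-1β, and all 5 were lower with both agents than in untreated cultures, against 15.3% and 14.7% of all genes. Caveolin 1 (Cav1), the main coat protein of caveolae, was 1199, 1220.0 and 1285 on the untreated and 661 and 625 on the glucosamine arrays. IL-1β gave 529, 572, 537 and 593 and both agents 536, 571, 547 and 571, and these 2 groups overlapped while the untreated arrays lay well above. Cav1 fell 2.21-fold with IL-1β (log2 -1.15 ± 0.06, adjusted p = 3.3e-08), 1.92-fold with glucosamine (adjusted p = 2.6e-06) and 2.22-fold with both (adjusted p = 4.9e-08). The other Cav1 probe sets, 1370131_at and 1393281_at, fell 3.73-fold and 2.78-fold with IL-1β. Caveolin 2 (Cav2), which assembles with caveolin 1, was 263, 256 and 270.1 in untreated, 191 and 183 in glucosamine, 129.9, 97, 108 and 63.2 in IL-1β and 135, 156, 154 and 109.8 in glucosamine plus IL-1β cultures. It fell 2.73-fold with IL-1β (adjusted p = 0.00021) and 1.92-fold with both agents (adjusted p = 0.0048). Both agents against IL-1β gave log2 0.51 ± 0.19 (adjusted p = 0.073, and adjusted p = 0.005 with the replicate letter as a block). Glucosamine alone gave log2 -0.49 ± 0.24 (adjusted p = 0.26) on this probe set and -0.38 ± 0.11 (adjusted p = 0.04) on 1377642_at.

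Caveolin 3 (Cav3), the muscle caveolin, was 69.2, 76.3 and 70.1 in untreated cultures and 21.5 and 26.2 with glucosamine. It was near the floor with IL-1β (8.54, 11.1, 8.2 and 4.65) and with both agents (9.21, 5.82, 12.9 and 6.54). The fall was 8.80-fold with IL-1β (log2 -3.14 ± 0.32, adjusted p = 1.7e-05), and 3.02-fold with glucosamine, which was lost without either glucosamine array (glucosamine a or b, adjusted p 0.067 to 0.12). Of the cavins, which coat the pit, Cavin2 was 50.3, 66.6 and 53.7 in untreated cultures and under the floor on all 10 treated arrays, at most 4.71. Each treatment thus lowered Cavin2 at least 9.88-fold (adjusted p = 3.2e-08 for IL-1β and adjusted p = 8e-07 for glucosamine), and no order among the treated groups can be read. Cavin3 was 1608, 1791 and 1827 in untreated, 1423 and 1260.4 in glucosamine, 907, 778, 744 and 644 in IL-1β and 1159, 1262, 976 and 951 in glucosamine plus IL-1β cultures. It fell 2.28-fold with IL-1β (adjusted p = 2.2e-05), and with both agents it was 1.42-fold higher than with IL-1β alone (adjusted p = 0.0077).

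The 4 genes of the fast skeletal sarcomere were not expressed like the rest. Myl1, Tnnt3 and Tnni2, which code for a myosin light chain, troponin T and troponin I of fast muscle, lay between 5.06 and 44.1 on all arrays and passed the test in none of the 6 comparisons. In a fit without both d arrays, Tnnt3 was lower with IL-1β than in untreated cultures (log2 -1.60, adjusted p = 0.0029). It was also lower with both agents there (log2 -1.36, adjusted p = 0.0072). Myl1 was higher with IL-1β in that fit (log2 1.60, adjusted p = 0.0014). With the replicate letter as a block, Myl1 was lower with both agents than with IL-1β (log2 -1.02, adjusted p = 0.037, and 0.077 without the block). Of 8 measured markers of skeletal muscle, 4 were at or under the floor on all untreated arrays, and the 8 summed to 39.6 to 68.7 there, to 39.8 to 47.3 with glucosamine, to 124 to 287 with IL-1β and to 68.0 to 214 with both agents. With IL-1β, Pvalb and Myod1 were higher and Atp2a1 was lower. Myosin heavy chain 1 (Myh1) had 5 probe sets, all well above that, between 82.3 and 570.4 on the untreated arrays, and they did not go together. The representative, 1377720_x_at, was 400.0, 387 and 400.2 in untreated, 568 and 554 in glucosamine, 447, 458, 499 and 568 in IL-1β and 579.7, 604, 583 and 712 in glucosamine plus IL-1β cultures. It rose 1.42-fold with glucosamine (lost without glucosamine a or b, adjusted p 0.052 to 0.067), 1.24-fold with IL-1β (lost without untreated a, b or c or IL-1β c or d, adjusted p 0.051 to 0.093) and 1.56-fold with both (adjusted p = 0.00025). The probe set 1377114_at fell with glucosamine, from 82.3, 102 and 108 to 46.5 and 47.1 (2.07-fold, adjusted p = 0.011), and was 1.72-fold lower with both agents. Of the other 3, 1383162_at was 1.34-fold lower with both agents, 1377719_a_at was 1.23-fold higher, and 1383161_a_at passed the test in none of the 6 comparisons. No direction is given for Myh1 as a gene, and whether these probe sets report on its transcript was not tested.

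**Figure D4:**
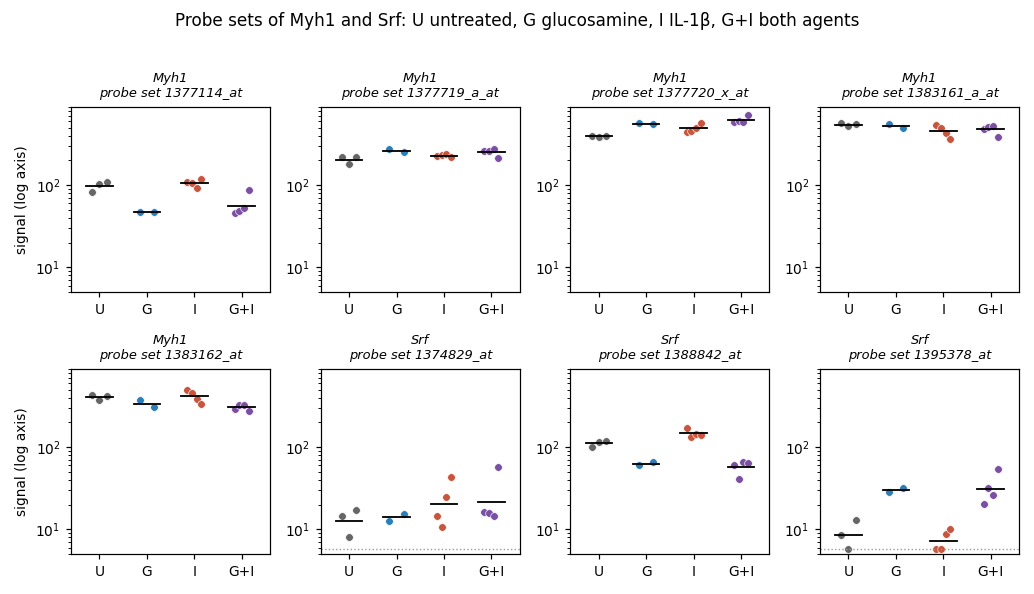
Signal on each array (points, log axis) for the 5 probe sets of Myh1 and the 3 of Srf, with bars at the geometric mean of each group and a dotted line at the floor of 5.71. Myh1 1377720_x_at is higher in both groups with glucosamine and 1377114_at lower, and Srf 1388842_at is lower in them and 1395378_at higher.

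Over the set, the 46 further probe sets of the 19 genes gave 276 comparisons with the representative. The call differed in 78 of them. It was opposite in 8, all of Srf and Myh1. In 53, at least 1 of the pair was called and their fold changes were more than 1.5-fold apart, most often for Tpm1 (9), Cald1 (7), Myh1 (7) and Srf (6).

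Apart from Cavin2 and Lmod1, whose differences the floor set, the response to IL-1β differed with glucosamine present for 8 genes, and for 7 of them IL-1β lowered the signal less or not at all. Fhl1 gave a log2 difference of -2.18 ± 0.08 with IL-1β alone and of -0.52 ± 0.09 over glucosamine, a difference of 1.66 ± 0.12 (adjusted p = 6.6e-06). The call against glucosamine was lost without either glucosamine array (glucosamine a or b, adjusted p 0.063 to 0.19). For Cav1, IL-1β gave -1.15 alone and -0.21 over glucosamine, a difference of 0.94 ± 0.08 (adjusted p = 2.6e-05). Cavin3 and Fhl2 gave -1.19 and -0.69 alone but -0.31 and 0.29 over glucosamine, differences of 0.88 ± 0.19 and 0.98 ± 0.19. Both calls were lost without glucosamine b (adjusted p 0.084 and 0.055).

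In the myosin group, Myl9 gave -2.10 ± 0.14 with IL-1β alone and -0.82 ± 0.16 over glucosamine, a difference of 1.28 ± 0.21 (adjusted p = 0.0024). Mylk gave -4.31 ± 0.26 and -1.92 ± 0.30, a difference of 2.39 ± 0.40 (adjusted p = 0.0026), but both groups with IL-1β had an array under the floor. The calls of Myl9, Mylk, Tpm2 and Cald1 against glucosamine were lost without either glucosamine array (adjusted p 0.059 to 0.28, 0.075 to 0.095, 0.094 to 0.21 and 0.12 to 0.22), and that of Myl9 also without glucosamine plus IL-1β a. For Tpm2 the difference of responses was 0.58 ± 0.15 (adjusted p = 0.036), lost without any 1 of 10 arrays (untreated a, b or c, glucosamine a or b, IL-1β b or c or glucosamine plus IL-1β a, b or c, adjusted p 0.05 to 0.17). Lmod1 (1.74) and Cavin2 (3.30) also passed, but their signals with both agents were under the floor on all arrays, for Cavin2 with glucosamine alone too, so that the floor fixed these differences. Of the genes that passed, only Myh10 had a difference below 0, -0.42 ± 0.11 (adjusted p = 0.032), since IL-1β raised it without glucosamine and gave 0.07 with it. This call was lost without 1 of 6 arrays (untreated a, b or c, glucosamine a or glucosamine plus IL-1β a or c, adjusted p 0.06 to 0.2). Csrp2, which IL-1β also raised, had a difference of -0.88 that did not pass (adjusted p = 0.13). It did pass in a fit without both d arrays (-1.04, adjusted p = 0.0074).

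**Figure D5:**
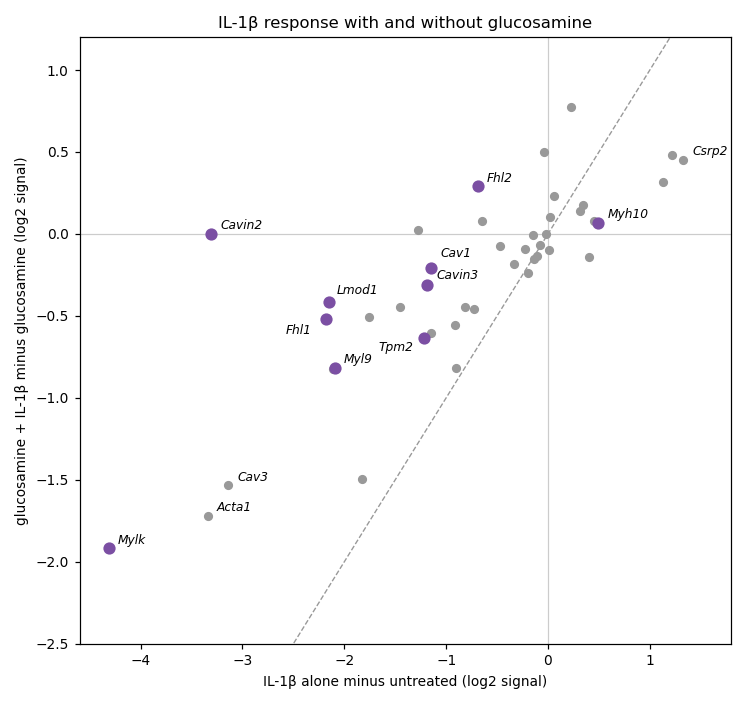
Each point is 1 of the 44 genes, with the log2 difference of IL-1β alone from untreated on the x axis and that of glucosamine plus IL-1β from glucosamine on the y axis. The dashed line marks equal responses, and the 10 genes whose responses differed (purple) lie above it, save Myh10, which lies below. Cavin2 and Lmod1 are placed by the floor.

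The responses of Tagln, Acta2 and Tpm1 did not pass the test for such a difference. Their values were 0.54 ± 0.28 (adjusted p = 0.37), 0.09 ± 0.25 (adjusted p = 1) and -0.02 ± 0.20 (adjusted p = 1). In a fit without both d arrays, that of Tagln passed (0.58, adjusted p = 0.027). So did those of Acta1, Smtn, Cnn1, Cav2 and Cav3, all above 0, and that of Csrp2, below 0. With glucosamine on 2 arrays, a p above the threshold does not show that the responses were alike.

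Of the 44 genes, 11 passed the test in none of the 6 comparisons on their representative probe sets: Actg2, Cnn2, Tpm3, Actn4, Zyx, Pfn1, Synpo2, Pdlim7, Myl1, Tnnt3 and Tnni2. The ubiquitous tropomyosin Tpm3 ranged from 929 to 1346 over the 13 arrays on its representative, with a median of 1134. Other Tpm3 probe sets fell with glucosamine, as given above. Profilin (Pfn1) ranged from 596, on IL-1β a, to 1907, with a median of 1656. Cnn2 and Actn4 ranged from 667 to 1075 and from 417 to 724, and their group differences lay between -0.22 and 0.12 and between -0.27 and -0.03 on the log2 scale. These 4 are widely expressed and lay far above the floor on all arrays, but the whole range of Pfn1 lay within the IL-1β arrays. Zyxin (Zyx) was higher in the mean of each treated group, by log2 0.53 ± 0.33, 0.45 ± 0.28 and 0.61 ± 0.28 with glucosamine, IL-1β and both, without passing the test.

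Other genes of the same pathways were counted from lists drawn up with earlier results of these data known. Of 22 further actin, light chain and MRTF-SRF target genes, 19 were tested. IL-1β lowered 10 and raised 1, glucosamine lowered 7 and raised none, and with both agents 12 were lower and none higher than in untreated cultures. Of all genes, 15.3%, 9.37% and 14.7% were lower and 15.5%, 10.4% and 16.6% higher in these comparisons. The median log2 difference was -0.76, -0.59 and -0.80. With IL-1β the largest falls were of Filip1l, from 100.4 ± 5.43 to 1.52 ± 5.66 (SD, n = 3 and 4), and of Ankrd1, a muscle ankyrin repeat protein, from 85.2 ± 3.42 to 19.6 ± 3.27. With glucosamine Palld, which codes for palladin of stress fibers, fell from 188 ± 24.3 to 36.0 ± 8.82 (log2 -2.40, adjusted p = 0.019).

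Of the SRF cofactors, 5 of 6 were tested. IL-1β lowered 1 and raised 1 of the 5, against 15.3% and 15.5% of all genes. Glucosamine lowered none and raised 1, against 9.37% and 10.4%. The smooth muscle cofactor myocardin (Myocd) fell from 37.8 ± 4.71 to 9.55 ± 3.03 with IL-1β (log2 -2.02, adjusted p = 0.00095), whereas Elk3, a ternary complex factor, rose from 365 ± 1.98 to 667 ± 53.6 (log2 0.87) and to 504 ± 29.7 with glucosamine. Mrtfa, Elk1 and Elk4 passed the test in none of the 6 comparisons.

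Of 3 tested further caveola genes, Ehd2, an ATPase at the neck of caveolae, fell with IL-1β from 494 ± 6.97 to 164 ± 30.0 and was 317 ± 20.7 with both agents. Pacsin3, a membrane-bending protein, rose with IL-1β (log2 0.67). Thus 1 of the 3 was lower and 1 higher with IL-1β, against 15.3% and 15.5% of all genes. Of 15 tested further sarcomere genes, slow muscle troponin C (Tnnc1) fell from 60.7 ± 3.86 to 12.8 ± 2.16 with IL-1β and to 7.33 ± 0.935 with glucosamine, and embryonic myosin (Myh3) rose from the floor to 26.7 ± 6.20 with IL-1β, and no other passed the test for either agent alone. With IL-1β this is 6.67% lower and 6.67% higher, under the 15.3% and 15.5% of all genes. With glucosamine it is 6.67% lower, against 9.37% of all genes.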

How the data were processed

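RNA from 13 flasks of cultured rat chondrocytes was hybridized to 13 arrays. Samples were grouped by their titles, since the description field repeats the glucosamine dose for samples of every group. The authors deposited 1 linear intensity per probe set and array. Per the methods, Microarray Suite read the arrays and Probe Profiler converted the intensities, globally scaled to 100. The labels name MAS5, version 5. Array means lay between 127 and 145, some values were below 0, and no scaling was added.

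The 57 control probe sets of the 31099 were removed. Values under 5.71, the 25th percentile, were raised to it and log2 was taken, since negative values have no logarithm and changes at low signals would otherwise follow noise. Folds of low genes are therefore understated. A further 1779 probe sets never exceeded it and were not tested. The other 29263 were fitted to the 4 groups with limma 3.58.1 in R 4.3.3 (eBayes, variance trend on, 9 residual degrees of freedom, two-sided, Benjamini-Hochberg adjusted p under 0.05), which was tested on simulated data first. The interaction was (glucosamine plus IL-1β minus glucosamine) minus (IL-1β minus untreated). Of all probe sets, 20826 carried 1 gene, 436 several and 9780 none.

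The members and lists were chosen with earlier results of these data known. Array values are given for genes called with a log2 difference of at least 1 in size, for those with disagreeing probe sets, and for Srf and Myh1. Genes of other lists were counted, and the 2 with the largest change in a comparison could be named. A further list is not reported here. Alternatives were other floors, scalings, filters and variance models, fits to 2 groups, another representative, the replicate letter as a block, the methods' own test, and leaving out arrays. Deviations from the group means correlated at 0.38 to 0.80 in all 4 same-letter pairs of IL-1β with glucosamine plus IL-1β arrays. Among same-letter pairs of other groups, 3 of 12 were over 0.1. Pairs of unlike letters were not set beside these, and the noisier d arrays enter the group means. Whether the letters pair the arrays was therefore not tested. A fit with the letter as a block among the 8 arrays with IL-1β was added after the data were seen. The number of arrays limits the precision.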

Additional observations from a re-analysis of the deposited data

Results flagged for a closer look

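The response to IL-1β differed with and without glucosamine (interaction term, limma adjusted p under 0.05) for 10 genes. On the log2 scale, with glucosamine minus without, the difference was 2.39 for Mylk, 1.28 for Myl9, 0.58 for Tpm2, 1.74 for Lmod1, 1.66 for Fhl1, 0.98 for Fhl2, 0.94 for Cav1, 3.30 for Cavin2, 0.88 for Cavin3 and -0.42 for Myh10. Those of Cavin2 and Lmod1 are set by the floor.

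Of 83 groups of 4 arrays, 8 held an array far from the other 3, by Dixon's test at the 95% level. The gap to the nearest array, as a share of the group's whole range, is given in parentheses, and chance flags about 1 group in 20. Array d stood apart in 5 of them. In glucosamine plus IL-1β cultures it was highest for Actg2 (0.928) and lowest for Actn1 (0.919) and Flna (0.848), and in IL-1β cultures it was lowest for Myh11 (0.921) and highest for Tgfb1i1 (0.899). Within IL-1β, array a was highest for Vcl (0.845) and array c lowest for Fhl2 (0.877), and within glucosamine plus IL-1β, array b was lowest for Srf (0.847).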

How the results depend on the processing

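Of the 44 genes, 25 were called for IL-1β against untreated, 23 for glucosamine, 31 for both agents against untreated, 21 for both against IL-1β, 5 for both against glucosamine and 10 for the interaction. No setting turned a call to the opposite direction. The methods' own test called 20 for both agents against untreated, 13 for both against IL-1β and 8 for both against glucosamine. A fit to the 2 groups alone called 0 for both against glucosamine. Without both d arrays, 9 were called for both against glucosamine and 17 for the interaction. With single arrays left out, the counts ran from 22 to 28 for IL-1β, 16 to 24 for glucosamine, 28 to 33 for both against untreated, 19 to 23 for both against IL-1β, 0 to 8 for both against glucosamine (0 without glucosamine a or b, 8 without IL-1β d) and 7 to 15 for the interaction. The cause of these shifts was not tested. Quantile normalization moved the median log2 difference of all probe sets from 0.10 to 0.01 for IL-1β against untreated and from 0.13 to 0.04 for both agents against untreated. With the replicate letter as a block in all groups the counts were 29, 27, 34, 23, 7 and 13 in the order above. With the block only among the arrays with IL-1β, an alternative chosen after seeing the data, 25 were called for both against IL-1β: Cav2, Cnn1, Myl1 and Pdlim7 were gained and none of the 21 was lost. Folds of Lmod1 and Cavin2 with IL-1β, and of these and Myh11 with both agents, are lower bounds. Those of Mylk, Acta1, Cnn1, Cav3 and Myh11 with IL-1β include arrays set to the floor. So do those of the further probe sets Vcl 1398476_at and Smtn 1396885_at with IL-1β.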
